A study of Mus musculus with 6 samples.

Results

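The 3 genes described here are Stard4, Suv420h2 and Rarb, which recur in the deposited read pairs mostly at the same place when all libraries are summed. Stard4 and Suv420h2 did not do so in every library. The members are the lines of 4 MARIO libraries in which either RNA was named as one of these genes. The 3 genes were among 19983 protein-coding names that had an end in the 4 libraries, and they took 18949 ends, 893 for Stard4, 9940 for Suv420h2 and 8116 for Rarb. The genes were chosen by the number of their ends at a single place and of the read pairs with them, so counts and shares of these ends are given as descriptions, without a test.

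MARIO links RNAs that a protein holds together. Each read pair gives a fragment before the RNA linker (RNA1) and another behind it (RNA2), and an end is either of them. The cells of ES-1 and ES-2 were E14, an embryonic stem (ES) cell line of 129/Ola mice grown without feeder cells, crosslinked by ultraviolet light of 254 nm and first trimmed by RNase I, by the labels to about 1000 nt. The study's methods give a range that reaches longer fragments for ES-1. ES-1 and ES-2 also differed in how ribosomal RNA (rRNA) was depleted. ES-1 was treated with duplex-specific nuclease, and for ES-2 the GeneRead kit served. ES indirect came from the same cell line, with formaldehyde and EGS as crosslinkers, sonication to about 1000 nt and the nuclease. MEF held embryonic fibroblasts of strain C57Bl/6, crosslinked at 254 nm, trimmed by RNase I to about 300 nt and depleted with the kit. The study's methods print this strain with another last number. No group carried a genetic change or a drug in the labels. In the order used for all values below, the libraries held 3230403 read pairs (ES-1), 1312314 (ES-2), then 3302146 (ES indirect) and last 474526 (MEF). Between 48.3% and 81.0% of them had an end named as rRNA. ES indirect and MEF were single libraries, so a difference between cell types cannot be told apart from one in crosslinking, trimming, depletion, strain or library.

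Stard4 encodes a lipid transfer protein that carries cholesterol between membranes. Suv420h2 encodes a methyltransferase of histone H4 that acts in heterochromatin. Rarb encodes a receptor that regulates genes when it binds retinoic acid. Small nucleolar RNAs (snoRNAs) of the SNORA kind guide the conversion of uridine to pseudouridine, mostly in rRNA, and the linker is a synthetic RNA that belongs to no gene.

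The fragments that carry the recurrent ends were short. The most frequent one over the 4 libraries is shown for Suv420h2 and for Rarb. It can be set against the gene it was named for and against another RNA. The fragment named Suv420h2 is in the orientation of the RNA, with the 15 bases that were traced through all libraries in capitals. The stretch of NCBIM37 (mm9) at its stated place lies in the annotated 5′ untranslated region, on the strand opposite to the gene, at chr7:4691731-4691756, with the longest run shared with the fragment, 12 bases, in capitals. The whole fragment needed 3 edits there and 5 in the closest rRNA-named fragment. Only deposited rRNA fragments of at least 40 nt and 20 copies were compared, so the comparison with rRNA was partial. The third sequence is that of deposited fragments named as rRNA, which shared 15 bases with the fragment, in capitals.
Suv420h2 fragment: cgcgcggcgCCTCGCCTCGGCCGGcg
Suv420h2 locus: gccgccgcgcctccCCTCGGCCGGCG
rRNA-named fragment: TCGCCTCGGCCGGCGcctagcagccgactt

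The fragments named Rarb started with an a and went on as the MARIO linker. Capitals mark what the fragments and the linker had in common in the first 3 sequences, which was 15 bases in the fragment of 16 nt and 20 bases in the fragment of 21 nt. The stated place was in an intron, on the strand of the gene, at chr14:17362514-17362537. There, capitals mark the 14 bases shared with the fragment of 16 nt. The longer fragment was the most frequent of those of at least 21 nt, with 483 ends against 1220 for the fragment of 16 nt. More frequent shorter ones are not shown. In ES-1 the most frequent, with 97 ends, was another of 16 nt that needed 2 edits in Rarb and 2 in the linker. The linker of 24 nt was read out of the short RNA1 fragments themselves.
Rarb fragment: aCTAGTAGCCCATGCA
Rarb longer fragment: aCTAGTAGCCCATGCAATGCG
linker: CTAGTAGCCCATGCAATGCGagga
Rarb locus: ACTAGTAGCCCATGgtacgttgga

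The recurrent fragment named Stard4 was 24 nt long. Its first 23 bases were those of the 5′ end of the snoRNA Snora81 (ENSMUSG00000087935, chromosome 16, 23110829 to 23111006), and it differed at the last base by T24A, counted from the 5′ end of Snora81. The stretch of Snora81 at chr16:23110829-23110852 is shown with that base in capitals.
Snora81: accttcttgtataagcactgtgcT

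Stard4 ends were most frequent in ES-1, with 766, against 53, 71 and 3 in the other libraries. That was 119 (95% interval 111 to 127), 20.2 (15.4 to 26.4), 10.7 (8.52 to 13.6) and 3.16 (1.08 to 9.29) ends per 1000000 ends of the library. ES-1 and ES-2, assays on the same cells, thus did not overlap in their intervals. Suv420h2 had 1568, 5493, 234 and 2645 ends, or 243, 2093, 35.4 and 2787 per 1000000. MEF and ES-2 were high and ES indirect was low. Rarb had 471, 1592, 3353 and 2700 ends in the same order, or 72.9, 607, 508 and 2845 per 1000000, with ES-1 lowest and MEF highest. Intervals here and below are 95% Wilson intervals. Such an interval holds the error of counting alone and no spread between replicates. The tables also keep no barcode by which molecules could be told apart.

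The sides and strands differed by gene. Of the Stard4 ends, 751 of 766 in ES-1 were RNA2 and all 53 were in ES-2, and of the Suv420h2 ends 1522 of 1568, 5483 of 5493 and, in MEF, 2645 of 2645. In ES indirect both sides were mixed, with 38 of 71 Stard4 and 140 of 234 Suv420h2 ends in RNA2. Rarb ends were RNA1 in 459 of 471, 1576 of 1592, 3318 of 3353 and 2686 of 2700 cases. For RNA1 the stated strand was taken as that of the RNA and for RNA2 as its opposite. With this rule, 84.5% of RNA1 and 92.3% of RNA2 ends outside introns of protein-coding genes in ES-1 lay on the strand of the gene, and 89.4% and 91.4% in ES indirect. The shares were 62.2% and 71.8% in ES-2 and 54.2% and 52.0% in MEF.

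Few positions held the ends. The position is the coordinate of the first base of the read, with its strand and its side of the linker. In ES-1, 730 of 766 Stard4 ends (95.3%) shared 1 position, at 33360560 of chromosome 18, in the 3′ untranslated region and opposite to the strand of the gene. In ES-2, 45 of 53 did. In ES indirect the position with most ends held 10 of 71. For Suv420h2 the most frequent position held 71.9% of the ends in ES-1, 76.1% in ES-2, 83.1% in MEF and 15.8% in ES indirect. For Rarb these shares were 77.5%, 96.2%, 92.9% and 95.7%. Among protein-coding names with at least 100 ends, the median share at the most frequent position was 23.4% over 1294 names, 50.5% over 711, 6.45% over 5380 and, in MEF, 60.1% over 282. Shares as high as that of Stard4 in ES-1 were held by 9 names, Stard4 included, and shares as high as that of Rarb in ES indirect by 5, Rarb included. In MEF, 73 of the 282 names reached the share of Suv420h2.

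With positions up to 5 nt away counted in, a set called the recurrent position from here on, the 4 libraries held 732, 50, 2 and 0 ends for Stard4. They were 1468, 5474, 59 and 2644 for Suv420h2, around 4691731 of chromosome 7, and 412, 1555, 3266 and 2671 for Rarb, around 17362537 of chromosome 14. Over the 4 libraries this was 18333 of the 18949 ends (96.8%), spread over 2 positions for Stard4, 8 for Suv420h2 and 6 for Rarb. The other 616 ends lay at 57, 93 and 133 positions.

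**Figure D1:**
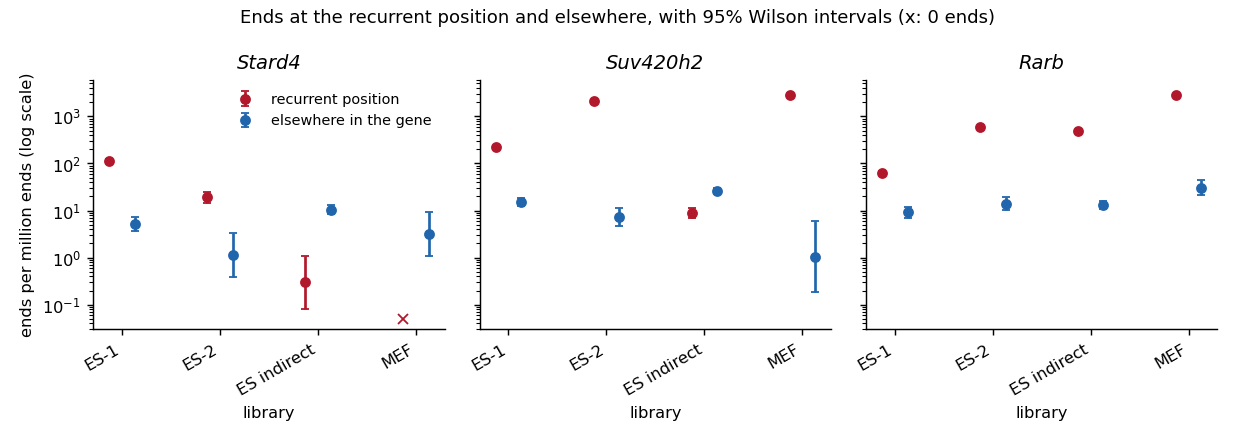
Ends per 1000000 ends of each library (log scale) for Stard4, Suv420h2 and Rarb, at the recurrent position (red) and elsewhere in the gene (blue), with 95% Wilson intervals; a cross marks 0 ends. The red points span from 0 to 5474 ends a library for these genes, while the blue points stand for at most 175 ends; elsewhere exceeds the recurrent position only for Stard4 in ES indirect and MEF and for Suv420h2 in ES indirect.

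The ends elsewhere in the 3 genes numbered 34, 3, 69 and 3 for Stard4 in the 4 libraries, 100, 19, 175 and 1 for Suv420h2 and 59, 37, 87 and 29 for Rarb. For Stard4 and Suv420h2 they were long, with a median of 90 nt each, against 24 and 26 nt at the recurrent position. ES indirect, whose ends of all names had a median of 90 nt, held 69 of the 109 and 175 of the 295. In ES-1 the medians elsewhere were 53.5 nt (Stard4) and 90 nt (Suv420h2), in ES-2 they were 39 and 48 nt, and in MEF 26 nt for both. Most of them lay on the strand of the gene, 104 of 109 for Stard4 and 281 of 295 for Suv420h2, while the recurrent positions, which hold a single strand each by definition, lay opposite to both genes. The ends elsewhere also often had both ends of the read pair in the gene, as 62 of the 109 Stard4 ends and 196 of the 295 Suv420h2 ends did, against 0 at the recurrent position. Of these, 52 and 148 were in ES indirect and 10 and 46 in ES-1. A read pair within the gene counts here once for each of its ends. By the deposited regions, 82 of the Stard4 ends elsewhere were in 3′ untranslated, 16 in intronic and 6 in 5′ untranslated sequence, and 5 were labelled exon. For Rarb, 203 of the 212 ends elsewhere were intronic, their median length was 26 nt against 18 nt at the recurrent position, and 125 lay on the strand of the gene.

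**Figure D2:**
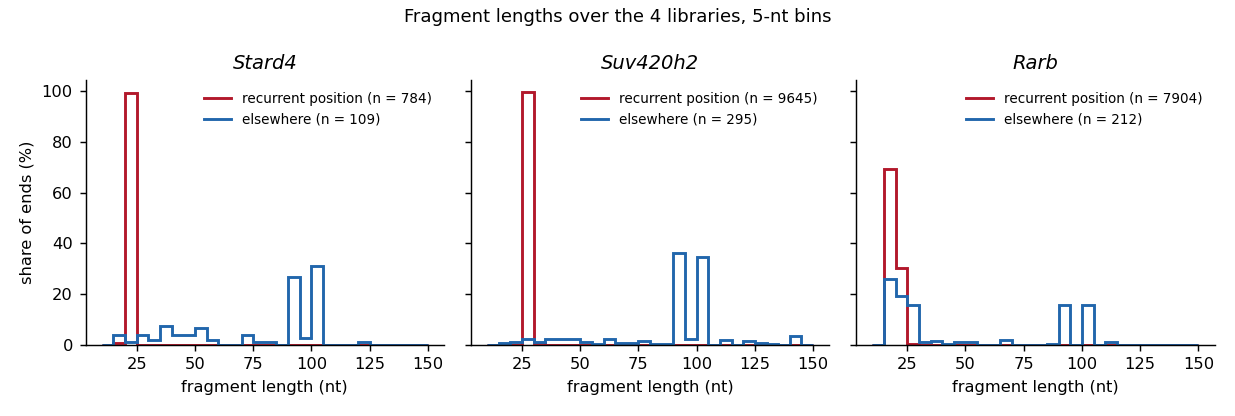
Share of ends (%) by fragment length (nt, bins of 5 nt) over the 4 libraries, at the recurrent position (red) and elsewhere (blue). Recurrent ends lie in a narrow range, 16 to 24 nt for Stard4, 25 to 32 nt for Suv420h2 and 16 to 27 nt for Rarb, while ends elsewhere reach 123, 141 and 111 nt.

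Part of the ends came from read pairs with the same coordinates. The 766 Stard4 ends of ES-1 came from 366 distinct pairs of coordinates, and the 2645 Suv420h2 ends of MEF from 883. The 5493 Suv420h2 ends of ES-2 came from 4390, and the 3353 Rarb ends of ES indirect from 2866. Over whole libraries, 5.37% (ES-2) to 49.9% (ES indirect) of read pairs repeated the coordinates of an earlier one.

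The sequences were then set against the genome at their stated place. Of the recurrent ends, 10 of 784 matched with up to 15% mismatches for Stard4 (1.28%, 0.694 to 2.33), 2226 of 9645 for Suv420h2 (23.1%, 22.3 to 23.9) and 3629 of 7904 for Rarb (45.9%, 44.8 to 47.0). Without any mismatch the numbers were 3, 0 and 12. Ends elsewhere matched in 106 of 109 cases for Stard4, in 292 of 295 for Suv420h2 and in 136 of 212 for Rarb. In a sample of 1 in 20 read pairs, ends of at most 30 nt in protein-coding names matched in 35.9% (MEF) to 43.0% (ES indirect) of cases, and all ends in 58.1% (MEF) to 95.6% (ES indirect). Stard4 and Suv420h2 were thus below the share of short protein-coding ends in every library where they had recurrent ends. For Stard4 in ES indirect this rests on 0 of 2 ends. Suv420h2 in MEF was only slightly below, at 33.2% (31.4 to 35.0). Rarb was near or above the share of short protein-coding ends, at 43.1% (ES indirect) to 51.2% (ES-2).

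Each fragment was also fitted as a whole, by the fewest edits, to its stated gene and to 4 other sets: GENCODE small RNAs, long fragments deposited as rRNA, fragments deposited as tRNA, and the linker. For Stard4, 778 of 784 recurrent ends (99.2%, 98.3 to 99.7) needed fewer edits in another RNA, in all 778 cases a small RNA. The median was 1 edit there against 5 in Stard4. For Rarb, 5782 of 7904 (73.2%, 72.2 to 74.1) needed fewer elsewhere, 5721 of them in the linker, 1398 tied and 724 fitted Rarb better. With a margin of at least 2 edits, 3328 (42.1%) needed fewer elsewhere. ES-1 was lower, with 137 of 412 (33.3%, 28.9 to 37.9) better elsewhere and 199 tied, against 74.7% to 77.0% better elsewhere in the other libraries. For Suv420h2 the order was turned, since 9598 of 9645 fitted the gene better, with a median of 3 edits in Suv420h2 and 5 in the best other sequence, and 3 fitted an rRNA-named fragment better. Of the ends elsewhere, 1 of 109 (Stard4), 0 of 295 (Suv420h2) and 22 of 212 (Rarb) fitted another sequence better. No complete mouse rRNA sequence was among the sequences compared, so only stretches that occur in fragments of at least 40 nt and 20 copies stood for rRNA. Fragments named as low-complexity repeats were not compared either.

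**Figure D3:**
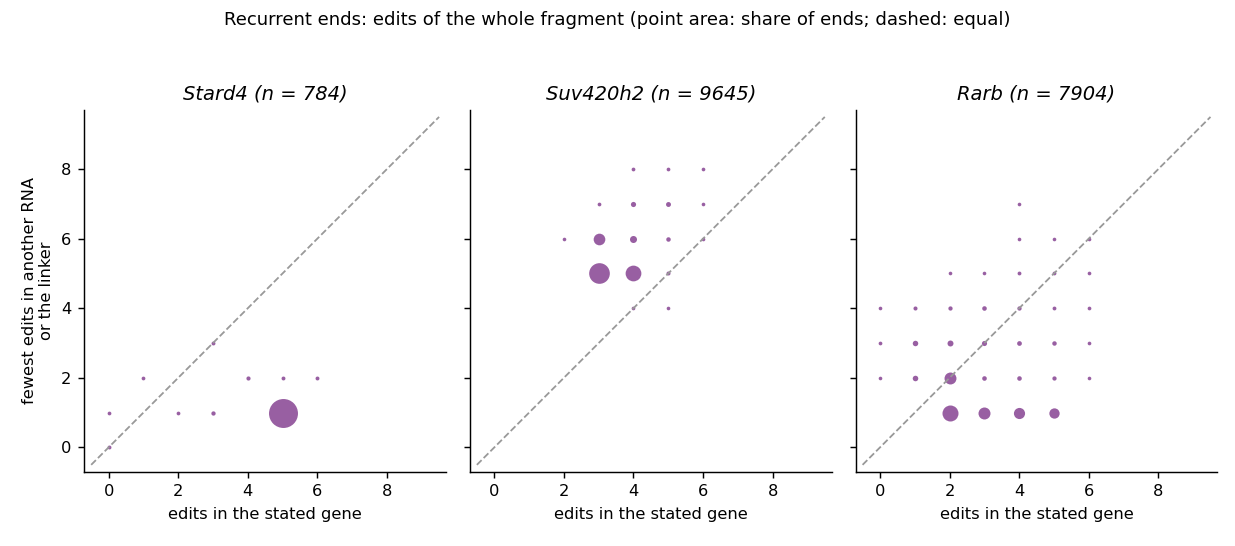
Edits that the whole fragment needs in the stated gene (x) against the fewest in another RNA or the linker (y), for the recurrent ends of Stard4, Suv420h2 and Rarb; point area grows with the share of ends and the dashed line marks equal numbers. Most Stard4 ends are at 5 edits in the gene and 1 elsewhere (764 of 784), Suv420h2 ends lie above the line except for 44 on it and 3 below, and Rarb ends lie mostly below it.

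The start of Snora81 was present under several names. In ES-1, 14262 ends started with the first 20 bases of Snora81 or did so after a single base. Of them, 12284 were named Snora81, 812 SNORA81 of chromosome 15 (ENSMUSG00000088895) and 698 Stard4 (4.89%, 4.55 to 5.26). In ES-2 there were 5335 such ends, of which 44 were named Stard4 (0.825%), and in ES indirect 39, of which 2 were. In MEF 0 of 447 were, which by the limit of 3 counts allows a share of up to 0.671%, while the Wilson interval reached 0.852%. The name followed the bases behind the stretch. When it went on as tgca and stopped, 698 of 759 ends in ES-1 and 44 of 56 in ES-2 were named Stard4. When it stopped at tgc, 0 of 1112 and 0 of 2589 were, and when it stopped at tgct, as Snora81 continues, 0 of 224 and 0 of 106. Of the 784 recurrent ends, 744 were the 24-base fragment itself and 777 ended in a.

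The partners of Stard4 were mostly Snora81 in ES-1. There, 444 of the 766 ends had Snora81 as the other RNA and 25 had SNORA81, over 139 and 16 pairs of coordinates. In ES-2, 7 of 53 had Snora81, in ES indirect 1 and in MEF none. All 469 of these partners in ES-1 lay on the plus strand, which is that of both snoRNAs. The 444 Snora81 partners started at a median of base 82 and ended at a median of base 179, just past the 178 annotated bases, and 439 of them started behind base 23. Of the read pairs in ES-1 whose RNA1 was named Snora81 or SNORA81, 4624 had an RNA2 that started as Snora81. They were named Snora81 or SNORA81 in 3940 cases and Stard4 in 447, and in ES-2 in 695 and 7 of 704 cases.

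The 15 bases shared by the Suv420h2 ends were present under many names. Of the 9645 recurrent ends, 9572 held them. By library they were in 8196 ends under 95 names, 30227 under 146, 342 under 42 and, in MEF, 6416 under 89. Suv420h2 took 1460 (17.8%, 17 to 18.7), 5455 (18.05%, 17.6 to 18.5), 58 (16.96%, 13.4 to 21.3) and 2599 (40.5%, 39.3 to 41.7) of them. The low-complexity repeat GC_rich took more in the libraries of ES cells, with 4202, 16805 and 119, and slightly fewer in MEF, with 2122. The same stretch was also named Neurl1b, Park7, Acer3, Prkar1a and Znrf2, in 683 ends of ES-1 as the repeat MMERGLN-int, and in 11 ends of ES indirect as large-subunit rRNA. The share named Suv420h2 was therefore higher in MEF than in the 3 libraries of ES cells, whose intervals overlapped.

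These names differed with the bases behind the stretch. Where the 15 bases were followed by cg and the RNA stopped, 1121 of 1375, 4165 of 4639, 37 of 48 and 2162 of 2437 ends of the 4 libraries were named Suv420h2. Where they were followed by cgc and the RNA stopped, 0 of 1420, 0 of 8709, 0 of 34 and 0 of 1532 were, and GC_rich took 1066, 6986, 18 and 1216 of them. Ends that stopped after c were again mostly named Suv420h2, with 291 of 391 in ES-1 and 1271 of 1723 in ES-2. So were those that stopped after cgcaa, with 43 of 45 in ES-1 and 24 of 26 in MEF. Ends that stopped after cgcc were named Suv420h2 in 0 of 1605, 0 of 6650, 0 of 48 and 0 of 893 cases. Those that stopped after cgcct were so in 0 of 1942, 0 of 4562, 0 of 77 and 0 of 110. GC_rich took 1886, 4516, 53 and 101 of the latter. The rRNA-named fragment shown above goes on with the same bases, cgcct. The names Suv420h2 and GC_rich thus went with different last bases.

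Fragments deposited as rRNA held the 3′ part of the same stretch. The 14 bases from base 12 of the 26-base fragment were in 8, 4, 143 and 2 rRNA-named fragments of the 4 libraries, and those from base 13, the last, in 15, 32, 261 and 4. The 14 bases from base 9 were in 8 fragments of ES indirect, 1 of ES-2 and none of the other libraries, those from bases 3 to 8 in at most 1 fragment of a library, and those from bases 1 and 2 in none at all. The rRNA-named fragments that held the last 15 bases went on as the third sequence shown for Suv420h2 in 153 cases, 140 of them in ES indirect.

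The start of the linker was present under many names as well. RNA1 ends with the first 13 bases of the linker within 3 bases of their start numbered 3874, 8044, 27768 and, in MEF, 82186. Rarb took 408 (10.53%, 9.60 to 11.5), 1555 (19.3%, 18.5 to 20.2), 3263 (11.8%, 11.4 to 12.1) and 2666 (3.24%, 3.13 to 3.37) of them. The short interspersed repeat B4A took 975, 2877, 3802 and 26019, and the gene Fhit took 9669 in ES indirect and 25309 in MEF. By the number of these ends Rarb had rank 3, 2, 4 and 5, with unannotated ends counted as a name. Of the 7904 recurrent Rarb ends, 7610 (96.3%) were an a followed by the first 13 bases of the linker, and in 7353 the next base was that of the linker, where the Rarb locus has another.

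The base in front of the linker went with the name. With a single a in front, 365 of 462, 1531 of 1892, 3207 of 4360 and 2507 of 3328 ends of the 4 libraries were named Rarb. With no base in front, 3 of 1667, 2 of 3525, 8 of 4597 and 130 of 35394 were, and B4A took 951, 2730, 3153 and 25073. With a t in front, none of the 171, 1818, 13198 and 34162 were, and Fhit took 118, 1440, 9599 and 24983.

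**Figure D4:**
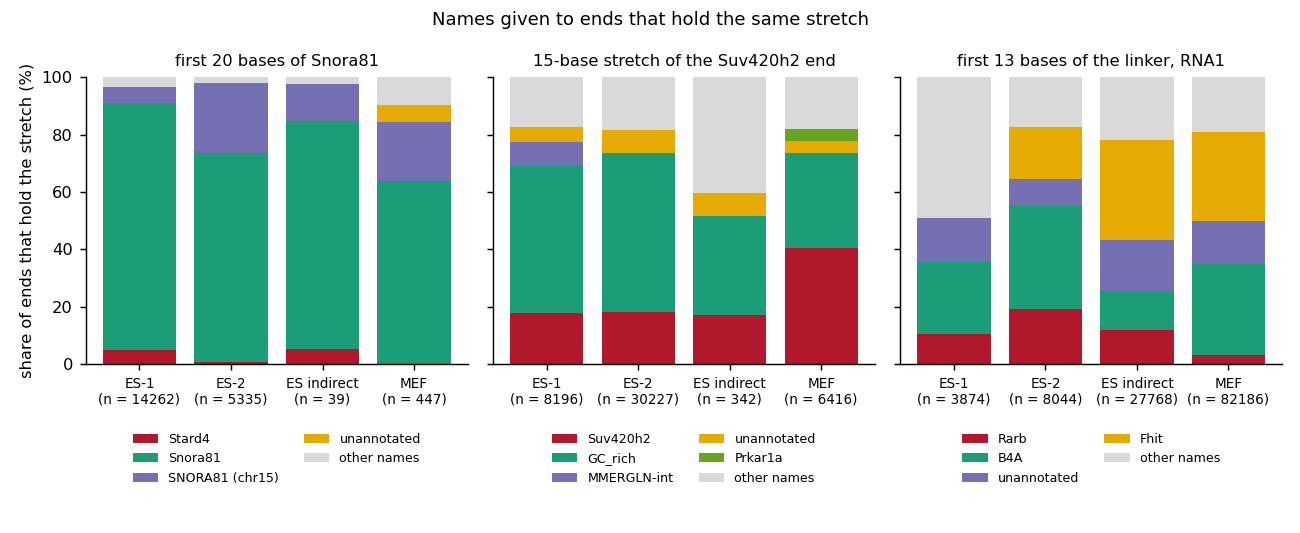
Share (%) of names among all ends that hold the first 20 bases of Snora81 (left), the 15 bases of the Suv420h2 end (middle) or, in RNA1, the first 13 bases of the linker (right), by library with the number of ends; names among the 3 most frequent of any library are drawn, each in the libraries where it was among the 5 most frequent, and the rest are other names. Red marks Stard4, Suv420h2 and Rarb, which take 0 to 5.13%, 16.96% to 40.5% and 3.24% to 19.3%.

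The other end of the read pair differed by gene and library. For Stard4 it was a snoRNA in 606 of 766 cases in ES-1 (79.1%, 76.1 to 81.8) and in 12 of 53 in ES-2, and Stard4 itself in 52 of 71 in ES indirect. These 71 ends came from 45 read pairs, because a read pair within the gene counts at each end. For Rarb the most frequent class was rRNA, in 364 of 471 (77.3%), 1107 of 1592 (69.5%), 1760 of 3353 (52.5%) and 1218 of 2700 cases (45.1%). Among all read pairs whose RNA1 was not rRNA, RNA2 was rRNA in 64.5%, 69.3%, 18.4% and 38.9%, so Rarb was near this background in ES-2 and above it in the others. For Suv420h2 it was rRNA in 520 of 1568 (33.2%) in ES-1 and 2318 of 5493 (42.2%) in ES-2, but in 82 of 2645 (3.10%) in MEF. Where RNA2 was not rRNA, RNA1 was rRNA in 27.8%, 37.5% and 7.56% of all read pairs of these libraries. In MEF, 1899 of the 2645 Suv420h2 partners (71.8%, 70.0 to 73.5) held a piece of the linker of at least 12 bases, against 81 (5.17%), 594 (10.8%) and 15 (6.41%) in the other libraries. Pieces of the linker were in 47.7% of all RNA1 fragments of MEF, against 1.48%, 6.39% and 3.56% in the others.

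**Figure D5:**
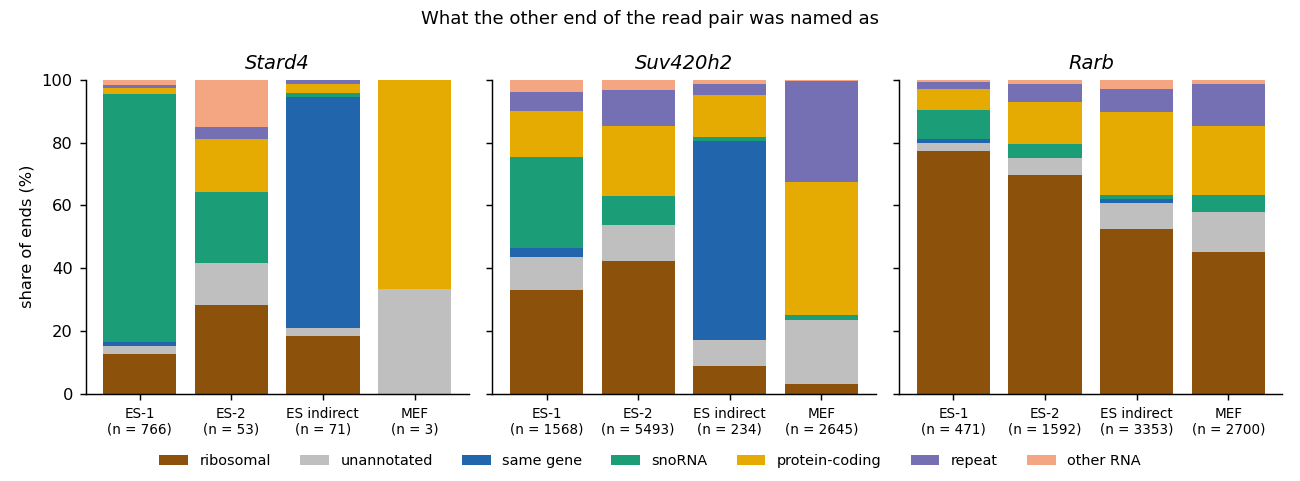
Share (%) of the ends of Stard4, Suv420h2 and Rarb by what the other end of the read pair was named as, per library with the number of ends. Stard4 in ES-1 is mostly joined to snoRNA (79.1%), Rarb most often to rRNA (45.1% to 77.3%), and Suv420h2 in MEF mostly to protein-coding names (42.2%) and repeats (32.3%).

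The names that Suv420h2 met most often in MEF were B4A with 533 read pairs, Fhit with 386, Nbea with 133, Agap1 with 91 and B4 with 90. A linker piece was in the partner fragment in 532, 385, 0, 91 and 87 of them. In 132 of the 133 Nbea fragments, at least 12 bases were the reverse complement of the Suv420h2 fragment of the same read pair. These partner fragments had medians of 16 to 17 nt. In ES-2 the most frequent partners were large-subunit rRNA (1674) and small-subunit rRNA (588), then B4A with 143, of which 114 held a linker piece, GC_rich with 90 and B4 with 50. In ES-1, Il1rapl1, Snora74a and SNORA4 followed both rRNAs with 19, 18 and 17 read pairs, and none of these held a linker piece. In ES indirect 148 of 234 partners were Suv420h2 itself, and the most frequent other name was the rRNA precursor Rn45s with 11. The 234 ends came from 160 read pairs, because a read pair within the gene counts at each end.

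Rarb met large-subunit rRNA in 162, 835, 931 and 1031 read pairs of the 4 libraries, and small-subunit rRNA in 201, 265, 153 and 163. In ES indirect Rn45s followed with 673 and U1, a small nuclear RNA of the spliceosome, with 52. Rarb with Suv420h2 occurred 44 times in ES-2 and 27 times in MEF, over 4 and 6 pairs of coordinates. In all of them the Rarb end was at its recurrent position and the Suv420h2 fragment held the 15 bases. Rarb with GC_rich occurred 38 and 59 times, and 29 and 32 of these GC_rich fragments also held the 15 bases. Leaving out rRNA and unannotated ends, Suv420h2 had 1117 partner names in ES-2 and 362 in MEF, of which 139 were in both, and Rarb had 803 in ES indirect and 670 in MEF, of which 129 were in both.

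Pairs of RNAs were called by a one-sided Fisher's exact test with Benjamini-Hochberg adjustment over all observed pairs, at an adjusted p under 0.05 and at least 3 read pairs. In ES merged, the sum of ES-1 and ES-2, 14452 of 227775 pairs were called (6.34%). Stard4 was in 3 called pairs of 89 observed, Suv420h2 in 64 of 1287 and Rarb in 9 of 293, shares of 3.37%, 4.97% and 3.07%. In ES-1 alone 10.5% of all pairs were called, and 3 of 76, 29 of 315 and 5 of 62 with the 3 genes. In ES-2 alone these were 1.27% of all pairs, and 3 of 20, 29 of 1117 and 5 of 252. In ES indirect 6.81% of all pairs were called, and 39 of 803 with Rarb, 0 of 39 with Suv420h2 and 0 of 4 with Stard4. In MEF 2.88% were called, with 13 of 670 for Rarb, 17 of 362 for Suv420h2 and 0 of 1 for Stard4. The genes were chosen with these pairs known, so nothing is read from the counts. The adjustment covers observed pairs only and is lenient for pairs with few predicted read pairs.

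The called pairs came almost wholly from the recurrent positions. In ES merged, the ends of all 64 Suv420h2 and all 9 Rarb pairs lay mostly there, as did those of 2 of the 3 Stard4 pairs. In MEF all 17 and 13 did, and in ES indirect 38 of the 39 Rarb pairs. Of all ends, the recurrent position held 95.6% and 94.3% (Stard4), 93.6% and 99.7% (Suv420h2) and 87.5% and 97.7% (Rarb) in ES-1 and ES-2. It held 99.96% (Suv420h2) and 98.9% (Rarb) in MEF and 97.4% (Rarb) in ES indirect. With most ends there in any case, nothing is read from the place of the called pairs. The partner mostly held a linker piece in 15 of the 64 Suv420h2 pairs of ES merged, in 13 of the 17 of MEF and in 21 of the 39 Rarb pairs of ES indirect. Of all Suv420h2 partners, rRNA and unannotated ones included, 5.17% in ES-1, 10.8% in ES-2 and 71.8% in MEF held such a piece. Of all Rarb partners in ES indirect 14.6% did. Stard4 with Snora81 had 451 read pairs in ES merged against 37.7 predicted, and Stard4 with SNORA19 had 4 against 0.858. The pair that did not come from the recurrent position was Stard4 with Gli2, a transcription factor of hedgehog signalling. It had 5 read pairs against 0.128, with 0 of the 5 ends at that position. An alternative added after the data were seen left out any read pair with a linker piece in either fragment. Rarb was left with 1 called pair in ES merged, 1 in ES indirect and 0 in MEF. The Rarb end itself mostly held such a piece in 9 of 9, 38 of 39 and 13 of 13 called pairs of these sets. The setting thus removed Rarb by its own rule, and nothing is read from its Rarb counts. Suv420h2 had 9 in MEF and 54 in ES merged, where Stard4 still had 3. All called pairs went from 14452 to 14080 in ES merged, from 9731 to 9246 in ES indirect and from 2425 to 1004 in MEF with this setting. With read pairs of the same coordinates counted once, Suv420h2 fell from 64 to 18 called pairs in ES merged and Rarb from 9 to 0, while Stard4 stayed at 3. All called pairs of ES merged fell from 14452 to 2039 with the same setting.

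Each library was sequenced on a pair of flow cells, and these differed for MEF. On the first, 2447 Suv420h2 ends gave 4017 per 1000000 and 2229 Rarb ends 3659 per 1000000. On the second, 198 and 471 ends gave 583 and 1386. The match of all Rarb ends to their stated place was 36.2% on the first and 93.0% on the second, and the share at the most frequent position was 96.9% and 73.9%. In ES-2, Rarb had 441 and 823 ends per 1000000 on its flow cells, and Suv420h2 1899 and 2346. In ES-1 all 3 genes differed less, at 114 and 121 (Stard4), 248 and 240 (Suv420h2) and 80.7 and 68.6 (Rarb). The part of the flow cell in the values of MEF was not tested.

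Genes that share a pathway with the 3 genes were described by the same share at 1 position. Of 17 genes of cholesterol transport and synthesis, 15 to 16 had an end in each library. Among those with at least 20 ends the highest share at 1 position was 51.2%, by Scap in ES-1. Scap encodes a protein that escorts transcription factors of cholesterol synthesis. Srebf2, a transcription factor of cholesterol synthesis, had 35.6% in MEF. Of 12 genes of histone methylation and heterochromatin, 10 to 12 had an end. Ehmt2, a methyltransferase of histone H3, reached 77.8% in MEF (70 of 90 ends) with a median of 26 nt, Phf8, a histone demethylase, 52.0% in ES-1, and Suv420h1, the paralog of Suv420h2, 45.2% in ES indirect. Of 16 genes of retinoic acid signalling, 15 to 16 had an end. Aldh1a3, an enzyme of retinoic acid synthesis, had 165 of its 166 ends in ES-2 at 1 position, with a median of 17 nt, and the nuclear receptors Rxra and Rxrg had 57.0% and 47.6% there. No gene of the lists exceeded 318 ends per 1000000 in any library, against 2787 for Suv420h2 and 2845 for Rarb in MEF.

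Likeness to other genes was measured by Pearson's r over 8 values, the ends per 1000000 of RNA1 and RNA2 in 4 libraries on a log2 scale with 1 added, among 7640 protein-coding names with at least 100 ends. It is a description, since the points share libraries. The names most like Rarb were Chrnb2 (r = 0.988), Zfp804b (0.984) and Dand5 (0.974). Of the ends of Chrnb2, 98.9% held a linker piece, of those of Zfp804b 97.2% and of those of Dand5 4.79%. The names most like Suv420h2 were Limk1 (0.984), Dmbx1 (0.980) and Rnf138 (0.975), with linker pieces in at most 1.27% of their ends, and those most like Stard4 were Tsta3 (0.869), Hebp1 (0.865) and Cited2 (0.861).

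By exonic ends on the strand of the gene, all 10 ES cell markers were present in each library of ES cells, summing to 148 to 495 per 1000000, and 5 of 10 in MEF, summing to 17.9 per 1000000, with Pou5f1 and Nanog at 0. Of 10 fibroblast markers, 9 were present in MEF at 593 per 1000000, and 5 to 9 in the libraries of ES cells at 97.9 to 176 per 1000000.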

How the data were processed

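The 4 tables deposited by the authors hold no measured values. Each line is a read pair, with the place, strand, sequence, RNA type, name and region of both fragments. By the study's methods, pairs with the same places and random barcode were counted once, samples were split by barcode, the linker was located, and pairs with a unique place in mm9 (NCBIM37) for both fragments were kept. Per the labels' processing notes TopHat2 2.1.1 was used, with a role not given in the sources used here.

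Lines were counted with Python 3.11.15, numpy 2.4.6 and pandas 2.3.3, Fisher's exact tests were computed with scipy 1.17.1, and edits with edlib 1.3.9.post1. Read pairs with an rRNA or unannotated end, with the same name on both sides, or closer than 2000 bp on 1 chromosome were left out of the test of pairs. The test was also run on simulated data, with an outcome not given here. The p-values of the test describe a library and carry no replicate error. The linker was read from the most frequent 12-base stretch of short RNA1 fragments, extended by the most frequent next base. Genes were those of GENCODE vM1.

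The genes and lists were chosen with earlier results of these data known. Besides the 3 genes, the text names up to 5 partners a library with at least 3 read pairs, the 3 most similar genes, and up to 3 genes a list with the highest share at 1 position. Other names that carried the same sequences, and Gli2 and SNORA19, were chosen after their values were seen. Alternatives concerned identical coordinates, fragments under 20 nt, strand, mismatches, position tolerance, edit margin, flow cell, thresholds and leaving out ES-1 or ES-2. The labels do not say that ES-1 and ES-2 came from separate cultures. Brain libraries were not used here. A gene of the lists that the rule for named genes would include is not reported here.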

Additional observations from a re-analysis of the deposited data

How the results depend on the processing

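No paired analysis was possible because the groups share fewer than 2 replicate numbers and the ends were compared without a test. For called pairs, leaving out either ES assay gave 3 for Stard4, 29 for Suv420h2 and 5 for Rarb in ES merged. These counts were equal, but the pairs behind them mostly differed between ES-1 and ES-2. Only the partner Snora81 of Stard4 and the repeat B4 of Suv420h2 were called in both, and no partner of Rarb was. Of all pairs, 14244 were called in ES-1 alone (10.5%) and 1386 in ES-2 alone (1.27%). How many of all called pairs were called in both assays was not counted. Whether these genes differ from other names in this overlap can thus not be told, and nothing is read from it. Collapsing identical coordinates gave 18 (Suv420h2) and 0 (Rarb) in ES merged, 11 for Rarb in ES indirect, and 5 (Suv420h2) and 4 (Rarb) in MEF, while all called pairs went from 14452 to 2039, from 9731 to 3627 and from 2425 to 710. Without fragments under 20 nt the counts were 19 and 2 in ES merged, 6 for Rarb in ES indirect, and 0 and 3 in MEF, while all called pairs went from 14452 to 11956, from 9731 to 8879 and from 2425 to 241 in these sets. At an adjusted p under 0.01, Suv420h2 had 41 in ES merged and Rarb 5 in MEF, while all called pairs went from 14452 to 11037 and from 2425 to 1674. With no minimum of read pairs, Stard4, Suv420h2 and Rarb had 6, 127 and 73 in ES merged, 2, 28 and 121 in ES indirect, and Stard4 and Rarb 1 and 88 in MEF, while all called pairs rose to 66224, 81404 and 38582. Without read pairs that held a linker piece, chosen after seeing the data, Rarb had 1 in ES merged, 1 in ES indirect and 0 in MEF. The Rarb ends mostly held such a piece themselves, so this setting removed them by its own rule. Suv420h2 had 9 in MEF and 54 in ES merged, and Stard4 3 in ES merged.

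Collapsing identical coordinates left 366 Stard4 ends in ES-1 and 35 in ES indirect, and 110 Suv420h2 ends in ES indirect and 883 in MEF. Without fragments under 20 nt, 127, 461, 1156 and 832 Rarb ends remained in the 4 libraries (ES-1 and ES-2 first, then ES indirect, then MEF). Sense ends numbered 32, 3 and 0 for Stard4 in ES-1, ES-2 and MEF, and 100, 16 and 0 for Suv420h2. At the most frequent position, the Suv420h2 share was 93.6%, 99.7%, 25.2% and 99.96% in the 4 libraries with a tolerance of 5 nt, 32.7% in ES indirect and 76.3% in MEF after collapsing, and 81.3% on the second flow cell of MEF. That of Rarb was 97.4% in ES indirect and 98.9% in MEF with the tolerance, and 54.3%, 92.1% and 96.5% in ES-1, ES indirect and MEF without short fragments. On the flow cells of MEF it was 96.9% and 73.9%.

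The match to the stated place was taken here over all ends of a gene, at any position. With up to 15% mismatches it was 5.09% for Stard4 in ES-1. It was 32.7%, 17.04%, 81.6% and 33.2% for Suv420h2 in the 4 libraries and 46.9%, 51.3%, 44.2% and 46.15% for Rarb. In ES indirect, 175 of the 234 Suv420h2 ends lay elsewhere, and 0 of the 59 recurrent ones matched without mismatches. Without mismatches the match of all ends fell to 2.35% for Stard4 in ES-1. It fell to 3.19%, 0.127%, 32.9% and 0% for Suv420h2 in the 4 libraries, and to 3.61%, 0.628%, 0.686% and 0.519% for Rarb. With up to 5% mismatches it was 6.06%, 0.255%, 72.2% and 0% for Suv420h2 and 5.52%, 0.817%, 1.73% and 0.519% for Rarb. Collapsing gave 63.6% (ES indirect) and 24.9% (MEF) for Suv420h2 and 49.2% (MEF) for Rarb. For Rarb single flow cells gave 50.8% (the first of ES-1), 42.0% and 57.8% (ES-2), and 36.2% and 93.0% (MEF), and for Suv420h2 in ES-2 9.46% and 25.05%, against 17.04% over both. With a margin of 2 edits, 38.1%, 41.1% and 46.7% of all Rarb ends, at any position, in ES-2, ES indirect and MEF fitted another RNA better, and collapsing gave 71.7% and 72.2% in ES indirect and MEF. For Suv420h2 that share was 0% in ES-2 and MEF with the margin and in MEF after collapsing. For each of these changes the cause was not tested.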
